A study of Mus musculus with 6 samples.

Results

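The Egr transcription factors and their Nab corepressors were followed through bulk RNA-seq of LβT2 cells, an immortalized mouse gonadotrope line. Members were the genes of the deposited count table whose identifiers map to the symbols *Egr1*, *Egr2*, *Egr3*, *Egr4*, *Nab1* and *Nab2*, and all 6 were found among 47069 genes. The 6 libraries came from passage 14 cells given 2 nM gonadotropin-releasing hormone (GnRH) for 40 min and then trypsinized and pelleted. In 3 of them the fresh cells were lysed at once, and the paper's methods store such lysates frozen. In the other 3 the cells were first kept at 4°C for 4 days or more in RNA-Best, a proprietary RNA-stabilizing buffer, then spun down again and lysed. The comparison was therefore of fresh with RNA-Best handling as a whole, and storage, spinning and time of lysis cannot be told apart. Every library carried GnRH, so the induction of the genes by GnRH cannot be read from it. Whether the 3 libraries of each kind stem from different cultures is not in the labels, so the p-values measure the spread between these libraries, which may be technical.

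Egr proteins are zinc finger factors that bind GC-rich elements, and their genes are immediate-early genes (IEGs), switched on within minutes through ERK signalling and serum response factor. In gonadotropes, Egr1 carries the GnRH signal to the *Lhb* gene, which encodes the beta subunit of luteinizing hormone. Nab1 and Nab2 have no DNA-binding domain of their own but dock on Egr1, Egr2 and Egr3 and repress their activity. The Egr genes resemble each other most in the zinc fingers, so shared stretches were counted. The longest exact run shared between transcripts was 44 bases for *Egr2* and *Egr3*, 38 for *Egr3* and *Egr4* and 17 for *Egr1* and *Egr2*. No stretch as long as a read occurred both in an Egr gene and in any other annotated gene, so a whole read that matches an Egr transcript exactly fits 1 annotated gene.

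The fresh libraries held 14477304 to 47438746 counts and the RNA-Best libraries 4909418 to 11999363, and the fresh libraries were 3.99 times as deep in all. Levels are given as CPM, in which every library is scaled to the same column total, or, between genes, as CPM per kilobase of exonic length (RPKM). Among gonadotrope markers, *Cga*, the common gonadotropin alpha subunit, stood at 1810 ± 19.5 CPM in fresh and 1430 ± 20.2 CPM in RNA-Best libraries (SD, n = 3 each), while *Fshb* had 0 counts in all libraries, which allows up to 0.611 CPM in the shallowest (counting error only). Of the 6 gonadotrope markers tested, 1 rose (*Gnrhr*, the GnRH receptor, at a log2 fold change of 0.43) and 3 fell. Of 9 markers of other pituitary cells, *Prl*, *Pou1f1* and *Sox2* were among those at 0 in all libraries, and the list summed to 0.839 to 1.17 CPM in fresh and 1.43 to 2.39 CPM in RNA-Best libraries, with a rise in *Tshb*, the 1 gene tested, which was lost without RNA-Best replicate 1 and was below the filter when libraries were thinned to equal depth. Of 7 markers of blood, endothelial and connective tissue cells, *Ptprc*, *Col3a1* and *Dcn* were at 0, and the list summed to 192.8 to 195.0 CPM in fresh and 197.3 to 211.3 CPM in RNA-Best libraries, most of it *Cdh5*, which rose, and *Pecam1*, which fell, among 3 tested. Of these 3 genes, 0 were called without RNA-Best replicate 3. Only 1 was called without RNA-Best replicate 1, when thinned to equal depth, with no filter on low counts or with DESeq2's Wald test. The sums of both lists of other cells were higher in RNA-Best, and their part in the results below was not tested. After a filter on low counts 14736 genes were tested, and 50.8% of them differed between the groups (edgeR's quasi-likelihood test, Benjamini-Hochberg adjusted p under 0.05), with 26.0% higher and 24.8% lower in RNA-Best.

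All 6 members passed the filter, and 4 of them were called. *Egr1* and *Egr3* were higher in RNA-Best and *Egr4* and *Nab2* lower, while *Egr2* and *Nab1* did not pass. A count of 4 of 6 lies close to the background of 50.8%, as do 2 higher beside 26.0% and 2 lower beside 24.8%, so the number of calls did not set the family apart. In 5 of the 6 genes the CPM of the groups did not overlap, beside 57.5% of all genes tested. In bulk libraries, fewer cells that express a gene and less of its RNA per cell cannot be told apart.

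**Figure D1:**
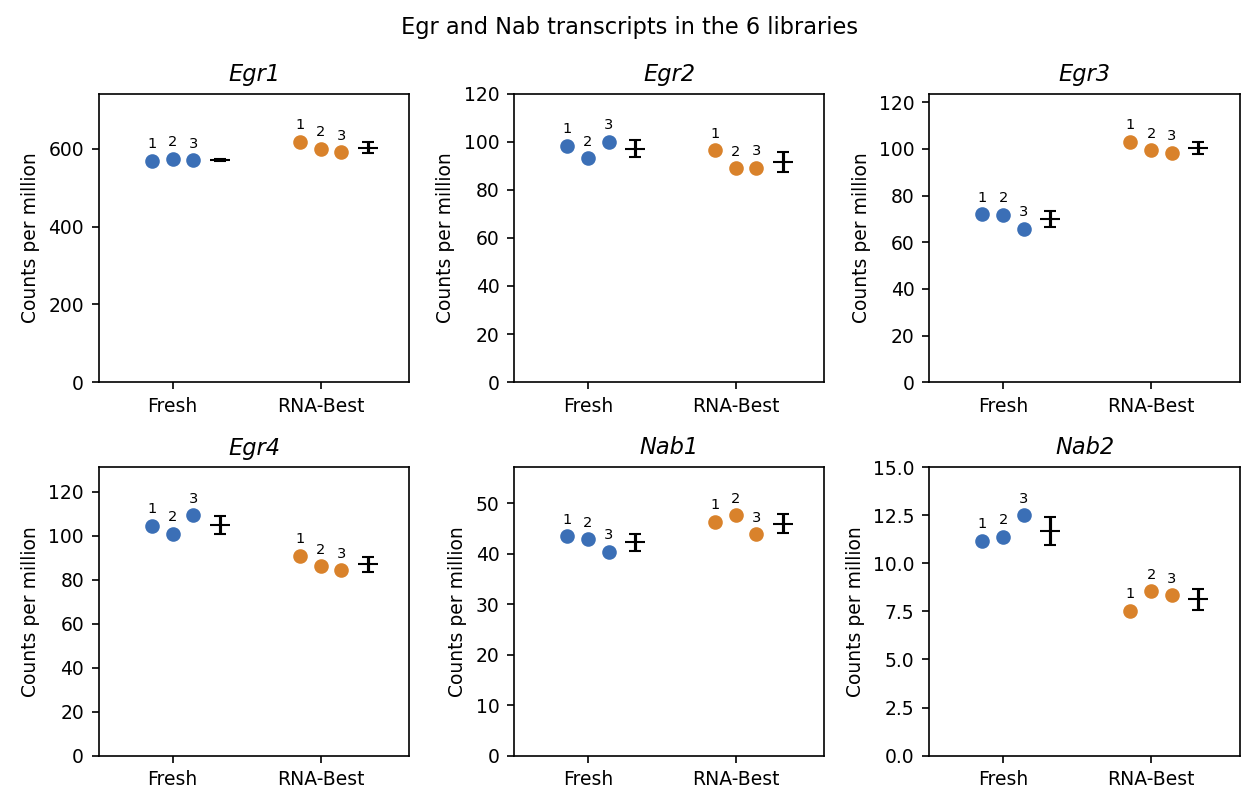
CPM (vertical axes, each from 0) of the 6 genes in 3 fresh (blue) and 3 RNA-Best (orange) libraries, numbered by replicate, with the mean and SD of each group in black. The RNA-Best points of *Egr3* lie between 98.42 and 103.2 CPM above all fresh points, those of *Nab2* between 7.523 and 8.555 CPM below all fresh points, and only in *Egr2* do the groups overlap.

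*Egr3*, which encodes a factor close to Egr2 that acts in muscle spindles and lymphocytes, showed the largest rise among the members. It had 72.06, 71.8 and 65.9 CPM in the fresh libraries and 103.2, 99.4 and 98.42 CPM in the RNA-Best libraries. Every RNA-Best value lay above every fresh value, and the gap between the groups was wider than the range within either. The mean rose from 69.92 ± 3.49 to 100.3 ± 2.5 CPM (SD, n = 3 each), a log2 fold change of 0.49 (SE 0.04) or 1.41-fold (95% interval 1.33 to 1.49; adjusted p = 2.99e-12, edgeR's quasi-likelihood test with Benjamini-Hochberg adjustment). Among all tested genes, 1053 had a higher log2 fold change, and 9.22% had one at least as large in either direction. The gene lies on chromosome 14 (chr14:70077203-70082614, plus strand, GRCm38). Its identifier carried an earlier version in the count table than in the annotation used here, which gives it 4406 exonic bases, so the length behind its counts is uncertain, and 1509 bases, its shortest coding transcript, were taken as an alternative.

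*Egr1*, the factor that transmits GnRH signals to *Lhb*, was the most abundant member and ranked 134 of 47069 genes by mean CPM. It had 569.6, 574.0 and 570.7 CPM in the fresh libraries and 618.4, 600.5 and 590.6 CPM in the RNA-Best libraries. The fresh values lay within a narrow band, with a coefficient of variation of 0.4% where counting alone gives 0.819%, and all RNA-Best values lay above it. The means were 571.4 ± 2.29 and 603.2 ± 14.1 CPM (SD, n = 3 each), and the log2 fold change was 0.064 (SE 0.027, 95% interval 0.0089 to 0.118), close to the threshold (adjusted p = 0.0475, edgeR with Benjamini-Hochberg adjustment). A change of at least this size, in either direction, was found in 82.7% of tested genes. The call was lost without fresh replicate 1, 2 or 3 and without RNA-Best replicate 1 or 2, at log2 fold changes of 0.060, 0.064, 0.062, 0.045 and 0.067 and adjusted p of 0.114, 0.0834, 0.0706, 0.223 and 0.0737 from edgeR. It was also lost with no filter on low counts, where the log2 fold change was 0.017 (adjusted p = 0.724, edgeR). Without the filter the median over all tested genes was lower as well, -0.064 beside -0.0074 with it. The log2 fold change of *Egr1* became larger, 0.17, with an offset for GC content (adjusted p = 7.58e-07, edgeR). This offset is a curve fitted in each library so that genes are compared at like GC content. *Egr1* lies on chromosome 18 from 34859823 to 34864984 (plus strand, GRCm38), and its counts in the fresh libraries, unlike those of the other members, included parts of counts.

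*Egr2*, or Krox20, known for its part in hindbrain segmentation and myelination, did not pass the test. Its fresh libraries had 98.33, 93.05 and 100.02 CPM and its RNA-Best libraries 96.43, 89.01 and 89.25 CPM. RNA-Best replicate 1 lay above fresh replicate 2, so the groups overlapped. The means were 97.13 ± 3.64 and 91.57 ± 4.21 CPM (SD, n = 3 each), with a log2 fold change of -0.089 (SE 0.041; adjusted p = 0.0704, edgeR with Benjamini-Hochberg adjustment). The 95% interval, which is not adjusted for the number of genes, ran from -0.17 to -0.0055, or from 0.887-fold to 0.996-fold. The gene, at chr10:67535475-67542188 on the plus strand of GRCm38, did pass without fresh replicate 2 (log2 fold change -0.13, adjusted p = 0.0171, edgeR) and without RNA-Best replicate 1 (-0.13, adjusted p = 0.0301, edgeR). It also passed with libraries blocked by replicate number (-0.10, adjusted p = 0.0368, edgeR), but not when the length offset was added to the block (-0.034, adjusted p = 0.541, edgeR). With no filter on low counts it passed as well (-0.14, adjusted p = 0.00474, edgeR). In that fit the median over all tested genes was lower too, -0.064 beside -0.0074 with the filter. The change of *Egr2* was smaller with an offset for length (-0.025, adjusted p = 0.677, edgeR), with libraries thinned to equal depth (-0.055, adjusted p = 0.477, edgeR) and when RNA-Best replicate 3 was left out (-0.059, adjusted p = 0.381, edgeR).

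*Egr4*, known for its role in the maturation of male germ cells, fell in RNA-Best. It had 104.6, 101.1 and 109.5 CPM in the fresh libraries and 90.96, 86.16 and 84.42 CPM in the RNA-Best libraries. All RNA-Best values lay below all fresh values. From 105.1 ± 4.21 to 87.18 ± 3.39 CPM (SD, n = 3 each) the log2 fold change was -0.27 (SE 0.04) or 0.827-fold (95% interval 0.78 to 0.876; adjusted p = 7.7e-07, edgeR with Benjamini-Hochberg adjustment). Of all tested genes, 31.4% had a change at least as large. *Egr4* (chr6:85511121-85513589, minus strand, GRCm38) was the shortest member, with 2148 exonic bases, and the richest in GC, with 68.2%. With an offset for GC content the log2 fold change was -0.066 and the call was lost (adjusted p = 0.189, edgeR), and with an offset for length it was -0.13 (adjusted p = 0.00874, edgeR).

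Of the Nab corepressors, *Nab2* fell and *Nab1* did not pass the test, and the difference between them was not tested. *Nab1* had 43.47, 42.88 and 40.41 CPM in the fresh libraries and 46.39, 47.66 and 43.92 CPM in the RNA-Best libraries. The lowest RNA-Best value lay just above the highest fresh value, so the groups did not overlap, but the difference did not pass the test. The means were 42.25 ± 1.62 and 45.99 ± 1.9 CPM (SD, n = 3 each), with a log2 fold change of 0.082 (SE 0.051, 95% interval -0.022 to 0.19; adjusted p = 0.189, edgeR with Benjamini-Hochberg adjustment). The value was 0.12 when RNA-Best replicate 3 was left out, 0.15 with libraries thinned to equal depth, 0.035 with no filter on low counts and 0.031 with the GC offset, and it passed in none of these. A change of at least this size was found in 77.7% of tested genes. The gene lies at chr1:52457294-52500679 on the minus strand of GRCm38.

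*Nab2*, the corepressor known to be induced by the Egr factors it restrains, was the least abundant member and showed the largest fall. Its libraries held 453, 540 and 181 counts in fresh and 66, 42 and 100 counts in RNA-Best cells, or 11.18, 11.38 and 12.5 CPM against 7.523, 8.555 and 8.334 CPM. All RNA-Best values lay below all fresh values. The mean fell from 11.69 ± 0.714 to 8.137 ± 0.543 CPM (SD, n = 3 each), a log2 fold change of -0.52 (SE 0.10) or 0.699-fold (95% interval 0.606 to 0.807; adjusted p = 5.91e-05, edgeR with Benjamini-Hochberg adjustment). Only 249 tested genes had a lower log2 fold change, and 8.12% had one at least as large in either direction. Its counts were few enough that counting alone gives a coefficient of variation of 12.8% in RNA-Best libraries, where 6.68% was observed. *Nab2* (chr10:127660918-127668568, minus strand, GRCm38) shares exonic bases with 3 genes on the opposite strand, 1050 with the antisense gene *Gm16229*, 151 with *Nemp1* and 40 with *Stat6*. Of its stretches as long as a read, 29.6% also occurred in *Gm16229* or *Nemp1*, and whether reads were counted by strand is not given in the sources used here, so its level is uncertain. *Gm16229* had 0 counts in all 6 libraries.

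**Figure D2:**
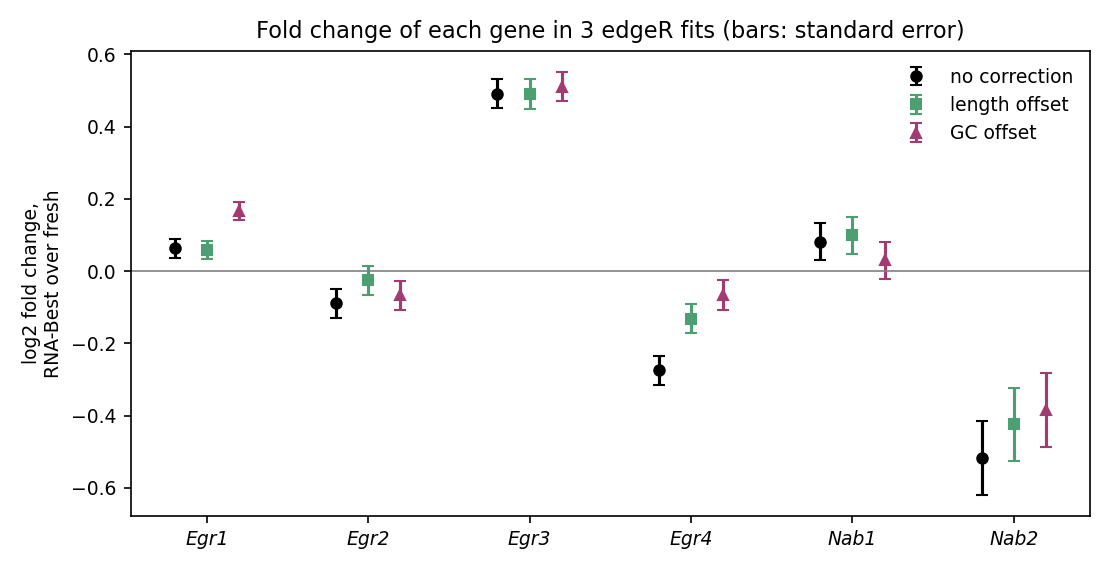
Log2 fold change of RNA-Best over fresh (vertical axis) for each gene in 3 edgeR fits, without correction (black circles), with an offset for exonic length (green squares) and with an offset for GC content (purple triangles); bars are the standard error. *Egr3* stays between 0.49 and 0.51 and *Nab2* between -0.52 and -0.38, whereas *Egr4* moves from -0.27 to -0.066 with the GC offset and *Egr1* from 0.064 to 0.17.

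Gene length and GC content moved with the fold changes over all genes and were therefore set beside each member. The median log2 fold change was -0.13 over the 2079 genes with 2000 to 3000 exonic bases, the class of *Egr4* and *Nab2*, and -0.061 over the 1988 genes with 3000 to 4000 bases, the class of *Egr2*. It was -0.0010 over the 1711 genes with 4000 to 5000 bases, which hold *Egr1*, *Egr3* and *Nab1*. *Egr3*, at 0.49, and *Nab2*, at -0.52, were far from the medians of their classes, whereas *Egr2*, at -0.089, lay within its standard error of it. By GC content, the median was 0.045 for the class from 45% to 50%, with *Nab1* (47.2%), and -0.059 from 50% to 55%, with *Egr2* (51.4%) and *Egr3* (51.3%). It was -0.12 from 55% to 60%, with *Egr1* (57.3%), -0.15 from 60% to 65%, with *Nab2* (60.1%), and -0.18 over the 69 genes of at least 65%, with *Egr4*. With the offset for length, *Egr3* had a log2 fold change of 0.49 (adjusted p = 2.04e-11, edgeR) and *Nab2* of -0.42 (adjusted p = 0.0011, edgeR). With the offset for GC content, the values were 0.51 for *Egr3* (adjusted p = 1.76e-13, edgeR) and -0.38 for *Nab2* (adjusted p = 0.00194, edgeR). At the shorter length of 1509 bases, the value of *Egr3* was 0.67 with the length offset.

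**Figure D3:**
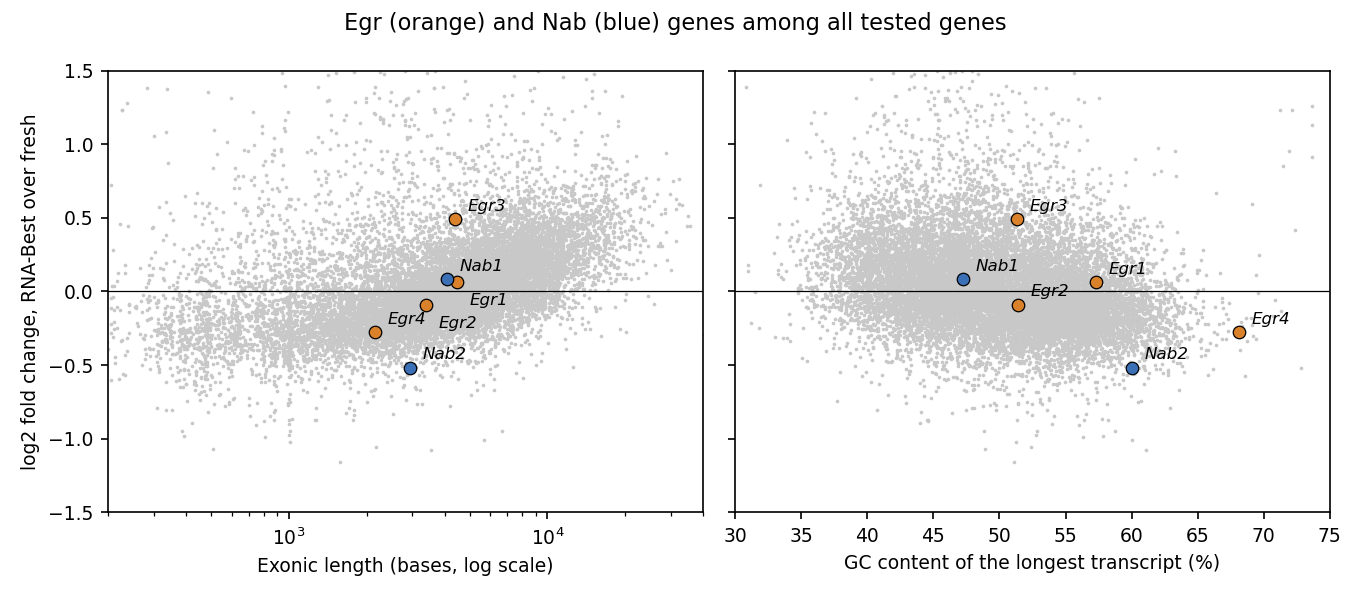
Log2 fold change of RNA-Best over fresh (vertical axes) against exonic length (left, log axis, bases) and GC content (right, percent) for the 14677 tested genes with both properties (grey), with Egr genes in orange and Nab genes in blue; 178 genes lie outside the axes. *Egr3* at 0.49 has 66 of the 1711 genes with 4000 to 5000 bases above it and *Nab2* at -0.52 has 27 of the 2079 genes with 2000 to 3000 bases below it, while *Egr4* at 68.2% GC has few neighbours.

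Per kilobase, *Egr1* was the highest member, at 127.4 ± 0.51 RPKM in fresh and 134.5 ± 3.14 RPKM in RNA-Best libraries (SD, n = 3 each). *Egr4* followed at 48.91 ± 1.96 and 40.59 ± 1.58 RPKM, *Egr2* at 28.59 ± 1.07 and 26.95 ± 1.24 RPKM, and *Egr3* at 15.87 ± 0.791 and 22.77 ± 0.567 RPKM. The Nab genes came last, *Nab1* at 10.31 ± 0.396 and 11.22 ± 0.464 RPKM and *Nab2* at 3.974 ± 0.243 and 2.767 ± 0.185 RPKM. This order was the same in each of the 6 libraries, and no neighbours overlapped within a group. It depended on the length taken for *Egr3*. At 1509 bases *Egr3* had 43.67 to 47.75 RPKM in fresh and 65.22 to 68.36 RPKM in RNA-Best libraries, above *Egr2* in all 6 libraries, and above *Egr4* in fresh replicate 2 and in all RNA-Best libraries, so that *Egr3* and *Egr4* overlapped in fresh cells.

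The make-up of the Egr transcripts differed between the groups, with *Egr3* taken at 4406 bases. Of the summed Egr RPKM, *Egr1* made up 57.2% to 58.5% in fresh and 59.4% to 60.1% in RNA-Best libraries. *Egr4* held 21.5% to 22.9% and 17.9% to 18.2%, and *Egr3* 6.72% to 7.45% and 10.1% to 10.2%. *Egr2* held 12.5% to 13.2% in fresh and 11.8% to 12.2% in RNA-Best libraries. On this scale the ranges of the groups did not overlap for any of the 4 genes. With *Egr3* at 1509 bases its own share was 17.4% to 19.0% in fresh and 24.7% to 24.8% in RNA-Best libraries, and that of *Egr4* was 18.8% to 20.3% and 14.97% to 15.3%, so the larger share of *Egr3* and the smaller share of *Egr4* in RNA-Best did not depend on that length. The share of *Egr2* was likewise smaller in RNA-Best at both lengths. The shares carry no offset for GC content, with which the log2 fold change of *Egr4* was -0.066 and was not called. The share of *Egr1* had no stable direction, since at the shorter length it was 50.3% to 51.2% in fresh and 49.8% to 50.3% in RNA-Best libraries, and as a share of summed Egr CPM the groups overlapped (67.4% to 68.3% and 68.0% to 68.6%).

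**Figure D4:**
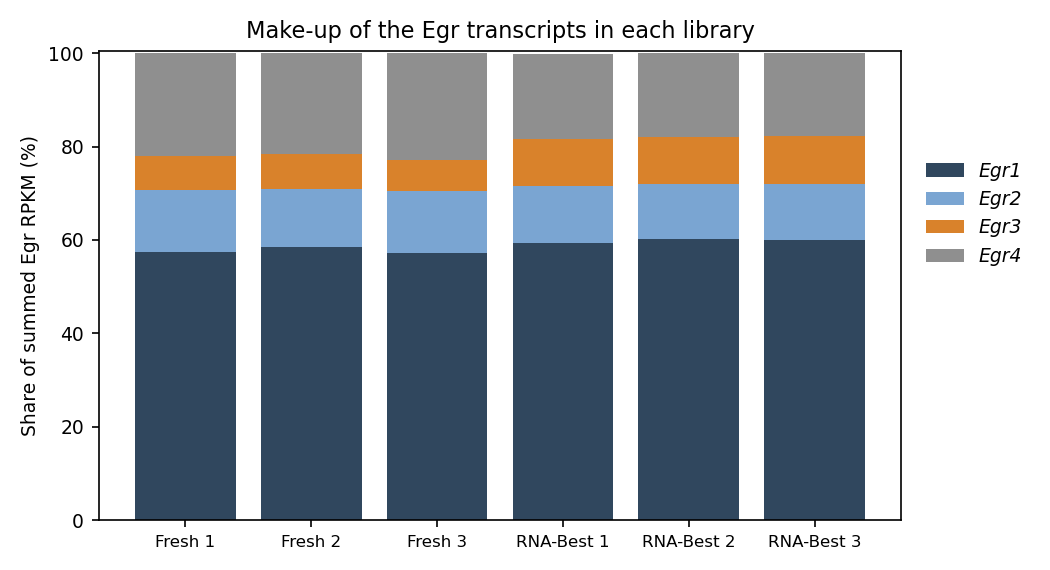
Share of the summed Egr RPKM (vertical axis, percent) taken by each of the 4 Egr genes in each library (stacked bars). The *Egr3* band widens from 6.72% to 7.45% in fresh to 10.1% to 10.2% in RNA-Best libraries, and the *Egr4* band narrows from 21.5% to 22.9% to 17.9% to 18.2%.

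Ratios within a library do not depend on its scaling, but these were not adjusted for the trends of the fold changes with length and GC content. The ratio of *Egr3* to *Egr4* RPKM was 0.3359, 0.3462 and 0.2934 in the fresh and 0.5529, 0.5624 and 0.5684 in the RNA-Best libraries. The ratio of *Egr3* to *Egr2* averaged 0.556 ± 0.0442 and 0.846 ± 0.0186, and that of *Egr3* to *Egr1* 0.125 ± 0.00611 and 0.169 ± 0.000708 (SD, n = 3 each). The groups did not overlap in any of these ratios. Between the corepressors, the ratio of *Nab1* to *Nab2* RPKM was 2.79, 2.702 and 2.318 in the fresh and 4.423, 3.996 and 3.78 in the RNA-Best libraries, again without overlap. These pairs were chosen after their values were seen and are given as a description, with no test.

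The summed levels of the Egr and Nab genes were compared next. The Egr sum included *Egr4*, which fell in RNA-Best and is not among the factors named above as bound by Nab1 and Nab2. The ratio without *Egr4* was not computed here, and the result below holds only for the sum of all 4 Egr genes. The summed CPM of the 4 Egr genes was 843.5 ± 3.19 in fresh libraries and 882.2 ± 23.9 in RNA-Best, and that of the Nab genes 53.94 ± 0.91 and 54.13 ± 1.99 (SD, n = 3 each). The ratio of summed Egr to summed Nab RPKM was 15.35, 15.27 and 15.78 in the fresh and 16.73, 15.33 and 16.21 in the RNA-Best libraries. RNA-Best replicate 2, at 15.33, lay below fresh replicates 1 and 3, so the groups overlapped. The log2 ratio differed by 0.056 between the groups, which was not significant (exact permutation test, two-sided, p = 0.3, where the smallest p of 3 libraries against 3 is 0.1). Single libraries moved this difference, to 0.028 when RNA-Best replicate 1 was left out and to 0.091 when RNA-Best replicate 2 was. The overlap of the groups depended on the length taken for *Egr3*. At 1509 bases the ratio was 17.45 to 17.82 in fresh and 18.31 to 19.97 in RNA-Best libraries, without overlap, and the log2 difference was 0.13 (two-sided p = 0.1 by the exact permutation test, the lowest that it can give here).

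Regulatory elements of the family were looked for in RefSeq windows from 250 bases before to 50 after a transcription start (GRCm38.p6). The elements were the CArG box bound by serum response factor, the Egr element GCGNGGGCG and the cyclic AMP response element TGACGTCA, each on both strands. They were found in 1.63%, 5.55% and 1.79% of 32851 windows. A CArG box, shown in capitals because serum response factor is the known regulator of Egr genes, lay in 4 of the 5 windows of *Egr2*, at 2 places on the plus strand, chr10:67537484-67537513 and chr10:67537787-67537816.
Egr2 upstream: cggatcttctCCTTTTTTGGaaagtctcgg
Egr2 downstream: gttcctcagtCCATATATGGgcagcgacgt
The window of *Nab1* held 3 Egr elements, in capitals, shown because Nab proteins bind the Egr factors. They are given in the direction of the gene (minus strand) at chr1:52500571-52500600, chr1:52500539-52500568 and chr1:52500468-52500497, and element A reads as the motif on the opposite strand.
Nab1 element A: cgccccgcggcCGCCCACGCcgggatctgc
Nab1 element B: cactcggccgcGCGTGGGCGggagccggag
Nab1 element C: cgcggggcgggGCGGGGGCGgcggaggtgg
Each of the 3 overlapped the GC box letters GGGCGG of Sp1. The windows of *Egr4* and *Nab2* held none of the 3 elements, and *Egr1* and *Egr3* were not analysed here. A match is a match of letters only, and binding was not measured.

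Genes around the Egr factors were taken from lists by role, and their counts are to be read against the 26.0% higher and 24.8% lower among all tested genes. Of serum response factor and its cofactors, 1 of 6 rose, 1 fell and 4 did not pass, with a median log2 fold change of 0.063 beside -0.0074 over all tested genes. *Srf*, which drives transcription of the Egr genes, fell from 284 ± 5.87 to 261 ± 10.2 CPM (SD, n = 3 each; log2 fold change -0.14, adjusted p = 0.000315, edgeR), and *Mrtfb*, an actin-regulated cofactor, rose from 49.9 ± 2.07 to 70.3 ± 5.18 CPM (0.44, adjusted p = 1.12e-09, edgeR). *Mrtfa*, its relative, had a log2 fold change of 0.083 (adjusted p = 0.128, edgeR). Of the kinases of the ERK cascade, which relays the GnRH signal to the Egr genes, 4 of 9 rose, 3 fell and 2 did not pass (median 0.018). *Braf* rose by 0.44 (adjusted p = 2.29e-09), *Rps6ka2* rose by 0.15 (adjusted p = 0.000103) and *Map2k2* fell by 0.26 (adjusted p = 6.01e-06) on the log2 scale in edgeR.

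Of the zinc finger factors that bind similar GC-rich elements, 2 of 3 rose and 1 did not pass (median log2 fold change 0.33). *Sp1* rose by 0.33 (adjusted p = 3.63e-10) and *Sp3* by 0.36 (adjusted p = 5.21e-10) in edgeR, and *Wt1*, at 1.59 and 1.04 CPM, had -0.59 (adjusted p = 0.0651). Of the subunits of NuRD, the chromatin remodelling complex through which Nab proteins repress, 3 of 11 rose, 4 fell and 4 did not pass (median -0.067). *Chd4*, the remodelling enzyme that Nab2 binds, rose by 0.24 (adjusted p = 7.03e-08) and its relative *Chd3* by 0.21 (adjusted p = 1.13e-07), whereas *Mbd3* fell by 0.34 (adjusted p = 2.95e-09) and *Rbbp7* fell by 0.079 (adjusted p = 0.0199) on the log2 scale in edgeR. With the offset for length, 3 of the NuRD genes and 1 of the serum response factor list were called.

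Downstream of the Egr factors, *Lhb* itself had 26.9 ± 1.54 CPM in fresh and 28.3 ± 1.21 CPM in RNA-Best libraries (SD, n = 3 each), with a log2 fold change of 0.029 (adjusted p = 0.775, edgeR). In the list of *Lhb* and the partners of Egr1 at its promoter, 2 of 6 rose, 2 fell and 2 did not pass (median 0.042). *Ep300*, a histone acetyltransferase, rose by 0.58 (adjusted p = 2.7e-14), and *Pitx1*, the pituitary homeobox factor, fell by 0.22 (adjusted p = 5.35e-08) in edgeR, while *Ctnnb1*, which encodes beta-catenin, had 0.056 (adjusted p = 0.0808). Of 11 genes known as Egr targets 9 were tested, and 3 rose, 1 fell and 5 did not pass (median 0.16). *Fgf2* rose by 1.33 at under 1.1 CPM (adjusted p = 0.00168) and *Tgfb1* fell by 0.23 (adjusted p = 0.0137) on the log2 scale in edgeR. With libraries thinned to equal depth 2 of these targets were called, *Fgf2* was below the filter and *Tgfb1* had -0.20 (adjusted p = 0.232, edgeR). Of 10 other IEGs, 5 fell, 5 did not pass and 0 rose (median -0.13), beside 24.8% lower and 26.0% higher among all tested genes. *Nr4a1*, an orphan nuclear receptor, fell by 0.17 (adjusted p = 9.01e-06), *Ier2* fell by 0.27 (adjusted p = 3.37e-06) and *Btg2* fell by 0.12 (adjusted p = 0.000812) on the log2 scale in edgeR. With the offset for length, 3 of these IEGs were called.

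For each member, the genes with the most similar course over the 6 libraries were sought by the root mean square difference of centred log2(CPM + 1), so a smaller value means a closer match. *Egr3*, whose own root mean square spread was 0.26, was matched most closely by *Ndst1*, at 0.018, and *Htt*, at 0.019. *Nab2*, with a spread of 0.25, was matched by *Gm38056* and *Chmp6*, at 0.032 and 0.037, and *Egr4*, with 0.14, by *Zfp277* and *Get4*, at 0.017 for both. The other members had smaller spreads, which by themselves allow smaller differences. The closest genes were *Las1l* and *Exosc10* for *Egr1* (0.0081 and 0.0092, spread 0.044), *Lix1l* and *Ccdc181* for *Egr2* (0.010 and 0.014, spread 0.065), and *Tesk1* and *Asb1* for *Nab1* (0.0092 and 0.012, spread 0.076). The other members were left out of the search, and each match rests on 6 libraries in 2 groups. The matches were picked from all other tested genes, and counting alone gives *Egr3* a coefficient of variation of 3.65% in RNA-Best libraries. Whether the named genes share a course beyond the group difference and counting error was not tested.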

How the data were processed

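Bulk RNA-seq libraries of GnRH-treated LβT2 cells, 3 fresh and 3 RNA-Best, were prepared with a polyadenylated RNA kit and sequenced as single reads of 101 bases. The authors aligned reads to GRCm38 (mm10) with STAR 2.5.1b and counted them per gene with featureCounts 1.5.0-p1, and the deposited values are estimated counts, of which 9.36% to 16.3% in a library were more than 0.001 from a whole number. Whether multiple matches or strand were considered is not given in the sources used here. The 3 columns named as stabilized were taken as the RNA-Best libraries. The members and gene lists were chosen with earlier results of these data known.

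Counts were rounded and fitted in R 4.3.3 with edgeR 4.0.16 (TMM scaling, filterByExpr with a minimum count of 10, quasi-likelihood test over all 14736 genes that passed, Benjamini-Hochberg adjustment, false discovery rate 0.05). In counts simulated over 14560 genes, 46% of 50 genes changed 1.2-fold, 85.7% of 49 changed 1.5-fold and 100% of 48 changed 4-fold were recovered. There were 5 false calls. Far fewer genes were changed in the simulation than the 50.8% called in the data, so these rates may not hold for the data. Alternatives were limma 3.58.1 (voom), DESeq2 1.42.0 (Wald test on the filtered genes, and size factors), no filter, a replicate block, loess offsets (span 0.5) for length or GC content, thinning to 4909268 counts, cutting off parts of counts and leaving out each library. The second, shorter length of *Egr3* was added after the data were seen. Lengths, GC content and positions came from GENCODE M21, which matched 46488 of 47069 identifiers, where the authors used release M8. The summed Egr to Nab ratio was compared by an exact permutation test. Named genes were all members, the 2 genes with the closest course for each, and per list the largest rise and fall and the 2 most abundant members, of which some are not reported here. The chi-square per gene of the counts was 1.82 to 2.21 in pairs of the deeper fresh libraries. It was 1.08 to 1.29 in pairs of RNA-Best libraries, close to the sampling noise of 1. The spread beyond counting was small, with a common coefficient of variation of 2.14% in edgeR. All 6 libraries were kept apart. Spike-in controls and the single-cell and qPCR experiments were not used here.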

Additional observations from a re-analysis of the deposited data

How the results depend on the processing

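*Egr3* was called at each of its 17 alternatives (log2 fold change 0.44 to 0.67, adjusted p 1.92e-24 to 3.14e-09) and *Nab2* at each of 16 (-0.56 to -0.38, adjusted p 5.69e-07 to 0.00699, from edgeR, limma or DESeq2), while *Nab1* passed in none of 16 (0.031 to 0.15). *Egr4* kept its direction in all 16 and lost its call with the GC offset at -0.066. *Egr1* lost its call with no filter (0.017), the length offset (0.058), the replicate block with length offset (0.060) and DESeq2's Wald test (0.067, adjusted p = 0.0515), and ranged from 0.045 to 0.082 when 1 library was left out. *Egr2* gained a call with no filter (-0.14) and with the replicate block (-0.10, adjusted p = 0.0368 from edgeR), and ranged from -0.13 to -0.059 when 1 library was left out. Deviations of same-numbered libraries correlated at -0.0084, 0.012 and -0.0077, and the block gave 7472 calls over all genes beside 7479. RNA-Best libraries differed from each other little beyond sampling noise (chi-square per gene 1.08 to 1.29). Such noise also lowers the correlations, so they cannot decide whether the numbers pair the libraries. The number of members called was 3 to 5, and that over all genes 5331 (thinned) to 7637 (no filter, median log2 fold change -0.064). The summed Egr to Nab difference was 0.028 to 0.13 on the log2 scale, with exact p from 0.1 (*Egr3* at its short length, the largest difference) to 0.6. In the marker lists, 0 of the other pituitary genes were called without RNA-Best replicate 1 or when thinned, beside 1, and 0 of the blood, endothelial and connective tissue genes without RNA-Best replicate 3, beside 2. Of the Egr targets, 2 were called when thinned, beside 4. Causes of these differences were not tested. Depth limits *Nab2* most, with 42 counts in the shallowest library.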
